A study of Caenorhabditis elegans with 4 samples.

Results

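The regions described here are the autosomal binding peaks of the transcription factor UNC-55 that overlapped no peak of the transcription factor UNC-30 in the nematode Caenorhabditis elegans. They were chosen from the deposited peak lists as UNC-55 peaks on chromosomes I to V that shared not even 1 bp with a UNC-30 peak. This gave 731 of the 1938 autosomal UNC-55 peaks (37.7%, 95% exact binomial interval 35.6 to 39.9%), and of 2609 UNC-55 peaks in all. They are called UNC-55-only peaks below. They were set beside the other 1207 autosomal UNC-55 peaks, called shared, and the 972 autosomal UNC-30 peaks that met no UNC-55 peak, called UNC-30-only.

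The peaks came from chromatin immunoprecipitation followed by sequencing (ChIP-seq), which recovers the DNA that a protein is bound to. Whole larvae of the L2 stage, grown at 22 or 25 °C with OP50 bacteria as food, were lysed, and GFP-binding beads were used to pull down the DNA. There was 1 ChIP library for each factor and 1 input library for each, without antibody. All carried the strain label GSH100, so which factor was tagged is known only from the sample titles. Because whole worms were lysed, the peaks of a factor cannot be assigned to a cell type. With 1 library per factor, nothing could be compared with the spread between replicates, and no test was made. The intervals are exact 95% binomial intervals for counting error alone, with every peak taken as independent.

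UNC-55 belongs to the COUP-TF group of nuclear receptors. It acts in the VD class of GABA motor neurons, where it blocks the synaptic remodelling that the sister DD class undergoes in early larval life. UNC-30 is a homeodomain factor of the Pitx type that sets the GABA identity shared by DD and VD neurons. Peaks of UNC-55 without UNC-30 are therefore places where the factor was recovered from these worms and UNC-30 was not called.

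The deposited lists hold a chromosome, a start and an end for each peak, on a grid of 50 bp, with no height or score. Read depth is unknown, so the absence of a UNC-30 peak means only that none was listed. The rule itself has a soft edge. At its inner side, 6 UNC-55-only peaks directly abutted a UNC-30 peak and 3 more lay 50 bp away, while at its outer side 39 shared peaks overlapped a UNC-30 peak by just 50 bp. Among the abutting peaks were those at I 10756301 to 10756450 (150 bp), inside daf-16, the FOXO factor of insulin signalling, and at II 8931601 to 8931700 (100 bp), inside the enolase gene enol-1. Among the peaks just outside the rule were those at I 1651351 to 1651450 (100 bp) and at I 2292901 to 2293100 (200 bp). Only 35 of the 731 peaks were under 500 bp from a UNC-30 peak.

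UNC-55-only peaks were found on every autosome, most densely on II. Chromosome II carried 179 of them, or 11.7 per Mb, which was 1.32 times its share of the autosomal length (interval 1.15 to 1.5). Chromosome I followed with 147 (9.78 per Mb), then III with 113 (8.22 per Mb), V with 169 (8.08 per Mb) and IV with 123 (7.06 per Mb). The density on IV was 0.796 times its length share (interval 0.671 to 0.933), the only other ratio whose interval did not include 1. As part of the UNC-55 list, UNC-55-only peaks made up 44.2% on II, with an interval of 39.3 to 49.2%. On V they made up 42%, with one of 37.2 to 47%. They made up 36.3% on I, 33.2% on IV (interval 28.4 to 38.2%) and 31.8% on III (interval 27 to 37%). Shared peaks had another order, with 17.6 per Mb on III, 17.2 on I, 14.8 on II, 14.2 on IV and 11.1 on V. The share on a chromosome also depends on how many UNC-30 peaks were listed there.

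Within the chromosomes the UNC-55-only peaks were most frequent in the middle. With each autosome divided into 3 parts of equal length, the central part held 331 of them (45.3%, interval 41.6 to 49%), the left part 179 (24.5%, interval 21.4 to 27.8%) and the right part 221 (30.2%, interval 26.9 to 33.7%). Shared peaks were at 44.1% in the central part (interval 41.3 to 46.9%) and UNC-30-only peaks at 39% (interval 35.9 to 42.1%). Genes are also denser there. Per 100 protein-coding genes of the gene table used (assembly WBcel235), there were 5.05 UNC-55-only peaks in the central parts, 4.14 in the right and 3.34 in the left. This order did not hold on every autosome. On I the central part had the lowest value, 5.03 beside 5.14 in the left and 5.18 in the right, and on II the right part had 6.73 and the central part 6.61. On III, IV and V the central part had the highest value. The density in the central part ran from 9.12 per Mb on IV to 16.1 per Mb on II.

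The right part of II held 64 UNC-55-only and 64 shared peaks, so that 50% of its UNC-55 peaks met no UNC-30 peak (interval 41.0 to 59.0%). The lowest share was 25.2% in the left part of III (27 of 107, interval 17.3 to 34.6%). These intervals do not overlap, but the parts are the highest and the lowest of 15 and were not tested.

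**Figure D1:**
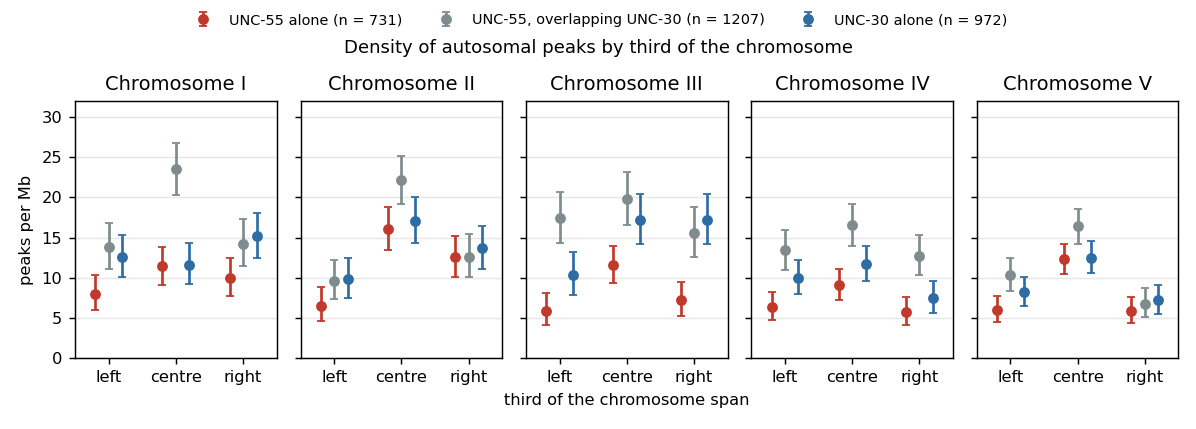
Peaks per Mb (vertical axis) in the left, central and right part of each autosome, for UNC-55-only, shared UNC-55 and UNC-30-only peaks, with bars for the exact 95% interval of each set's share on that chromosome. On each of the 5 autosomes the central part has the highest UNC-55-only density of the 3 parts, from 9.12 per Mb on IV to 16.1 per Mb on II.

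At a scale of 1 Mb, each of the 80 complete autosomal windows held between 2 and 26 UNC-55-only peaks, with a median of 9. The fullest was II 6000001 to 7000000, with 26 UNC-55-only peaks among 54 UNC-55 peaks. It was followed by II 11000001 to 12000000 with 20, and by II 9000001 to 10000000 and II 10000001 to 11000000 with 18 each. All 4 of these windows lie on II. Among the 72 windows with at least 10 UNC-55 peaks, the UNC-55-only share had a median of 36.0%. It was highest at I 11000001 to 12000000 (13 of 20 peaks, 65%) and II 14000001 to 15000000 (11 of 17, 64.7%). It was lowest at III 10000001 to 11000000, where only 2 of 25 UNC-55 peaks (8%) met no UNC-30 peak. These windows are extremes and were not tested.

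UNC-55-only peaks were narrow. Their median width was 200 bp (quartiles 150 and 250 bp) and their mean 202.8 bp, and together they covered 148.2 kb. Shared UNC-55 peaks had a median of 250 bp (quartiles 200 and 350 bp) and a mean of 290.7 bp, and UNC-30-only peaks a median of 200 bp and a mean of 247.7 bp. Widths of 100 or 150 bp were found for 46.2% of UNC-55-only peaks (interval 42.6 to 49.9%), for 20.8% of shared peaks (interval 18.5 to 23.2%) and for 34.1% of UNC-30-only peaks (interval 31.1 to 37.1%). Just 13 UNC-55-only peaks were 450 bp or wider. Of all autosomal UNC-55 peaks that were 100 bp wide, 61.2% were UNC-55-only (161 of 263, interval 55 to 67.1%). This share was 42% at 200 bp, 25.9% at 300 bp and 5.73% at 450 to 600 bp (9 of 157, interval 2.65 to 10.6%). A narrow peak also has less length with which to meet another peak. Width varied little with position. Medians were 200 bp on I, II, III and V and 150 bp on IV, and 200 bp in the left and central parts and 150 bp in the right part, steps of 1 grid unit.

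**Figure D2:**
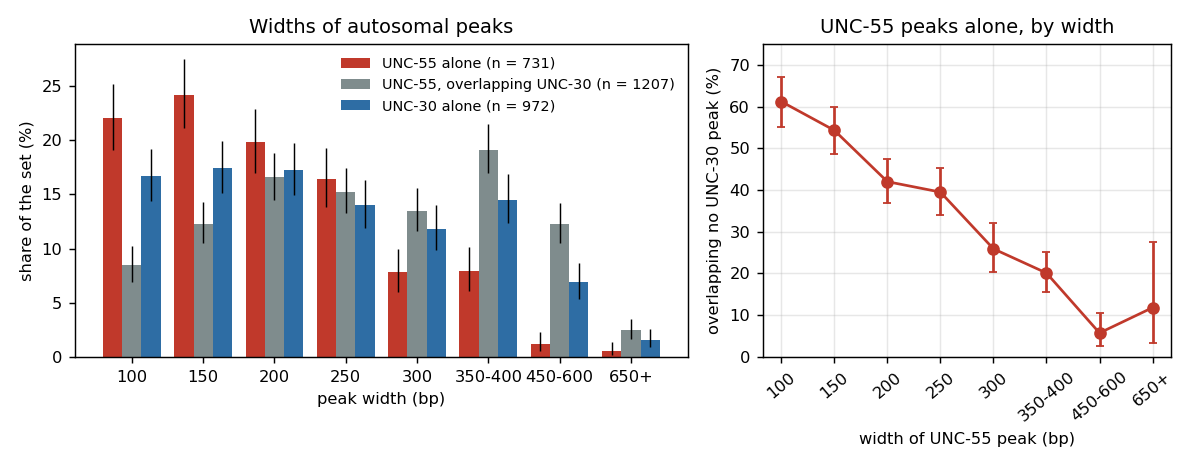
Left, share of each set (vertical axis, percent, bars from 0) in each width class (horizontal axis, bp) with exact 95% intervals; right, share of autosomal UNC-55 peaks of each width that met no UNC-30 peak. The share falls from 61.2% at 100 bp to 5.73% at 450 to 600 bp, and the last class (34 peaks) has a wide interval.

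At a limit of 2000 bp, most peaks of each set had no neighbour from their own list. Another UNC-55 peak of any kind lay under 2000 bp away for 189 of the 731 UNC-55-only peaks (25.9%, interval 22.7 to 29.2%). For shared peaks this was 31.4% (379 of 1207, interval 28.8 to 34.1%), and these intervals overlap. Of UNC-30-only peaks, 35.2% had another UNC-30 peak that near (342 of 972, interval 32.2 to 38.3%). At a limit of 10000 bp, 56.4% of UNC-55-only peaks had another UNC-55 peak. The nearest other UNC-55 peak was at a median gap of 7350 bp for UNC-55-only peaks and of 4400 bp for shared ones. The neighbours under 2000 bp away were of both kinds: 78 UNC-55-only peaks had just another UNC-55-only peak there, and 7 had both that and a shared peak, the rest having just a shared peak. No peak of either list lay within that distance for 490 of them (67.0%, interval 63.5 to 70.4%).

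Shared sites were usually far off. A shared UNC-55 peak was under 2000 bp away for 111 UNC-55-only peaks (15.2%, interval 12.7 to 18%). A shared peak had another shared peak that near in 24.4% of cases (interval 22.0 to 26.9%). UNC-30-only peaks had a shared UNC-55 peak that near in 22.3% of cases (interval 19.7 to 25.1%). Each shared site holds a UNC-30 peak, and UNC-55 peaks that overlap one were kept out of the UNC-55-only set. The set thus lacks the UNC-55 peaks closest to shared sites, while shared peaks face no such limit. Differences from shared peaks in this share and in the gap are therefore not free of the rule. The median gap to the nearest shared site was 16600 bp for UNC-55-only, 14175 bp for UNC-30-only and 8250 bp for shared peaks. To a UNC-30 peak of any kind the median gap was 8800 bp (quartiles 2025 and 25500 bp), and 181 UNC-55-only peaks (24.8%) had one under 2000 bp away. Of the 128 UNC-55-only peaks that were 300 bp or wider, 34.4% had another UNC-55 peak under 2000 bp away (interval 26.2 to 43.3%). Of the 338 of 100 or 150 bp, 23.4% did (interval 19.0 to 28.3%), with overlapping intervals. A shared UNC-55 peak was that near for 15.6% of the wide and 16.0% of the narrow ones. By chromosome the share with another UNC-55 peak under 2000 bp away was highest on II (34.1%, 61 of 179, interval 27.2 to 41.5%), where the peaks are densest. It was lowest on III (17.7%, 20 of 113, interval 11.2 to 26.0%).

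**Figure D3:**
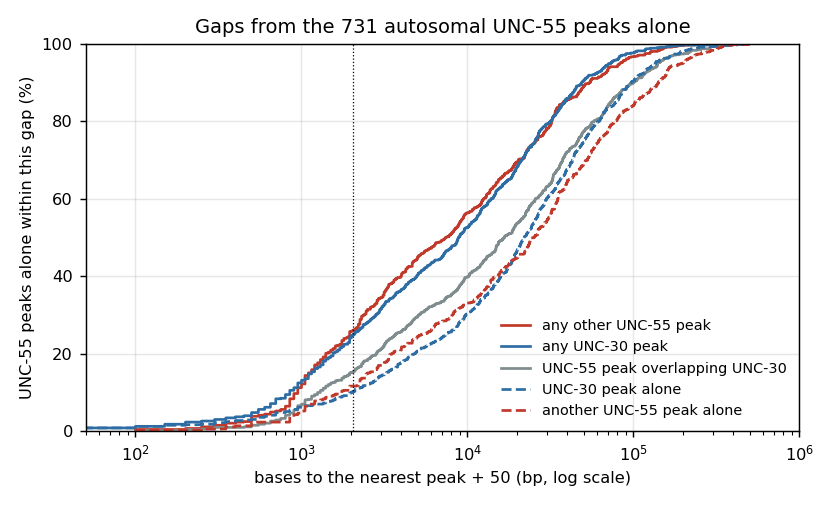
Cumulative share of the 731 UNC-55-only peaks (vertical axis, percent) whose nearest neighbour of each kind lies within the gap on the horizontal axis (bp, log scale, 50 added); the dotted line marks 2000 bp. At that line the curves stand at 25.9% for any other UNC-55 peak, 24.8% for any UNC-30 peak, 15.2% for shared UNC-55 peaks, 11.6% for other UNC-55-only peaks and 10.1% for UNC-30-only peaks.

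To place the peaks among genes, their fit to the WBcel235 gene table was measured first, because no label or file header names the genome build. In each of the 15 chromosome parts, including all of V, the share of peak centres of both lists that fell outside protein-coding genes was highest when positions were moved by 0 to 200 bp. Unmoved, it was higher than at any move of 2000 to 6000 bp to either side in all 15 parts. The deposited positions thus lie within about 200 bp of those in the table, which is enough to say which gene a peak is in or between, but not to place it against a transcript start. The genes around a peak (the gene that contains its centre, otherwise the nearest gene on each side) were the same at moves of 0, 100 and 200 bp for 682 of the 731 UNC-55-only peaks (93.3%). The table gives no strand, so gene starts and ends were treated alike as borders.

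UNC-55-only peaks lay mostly between genes. Their centres were outside protein-coding genes in 418 cases (57.2%, interval 53.5 to 60.8%), whereas 36.5% of all autosomal positions are outside. Shared peaks were outside in 62.3% (interval 59.5 to 65.0%) and UNC-30-only peaks in 57.4% (interval 54.2 to 60.5%). The spaces that held UNC-55-only peaks were long, with a median of 6336 bp (quartiles 3169 and 11684 bp). This compared with 5478 bp for shared and 5087.5 bp for UNC-30-only peaks, and with 5131 bp for the space around the median position outside genes. A gene border lay within 1000 bp of 39.5% of UNC-55-only peaks (interval 36.0 to 43.2%), below the 51.9% of all autosomal positions for which this holds, and the figure for shared peaks was 37.5% (interval 34.8 to 40.3%). Among peaks 300 bp or wider, UNC-55-only peaks were outside genes in 46.9% (60 of 128, interval 38 to 55.9%) and shared peaks in 62.8% (359 of 572, interval 58.7 to 66.7%), so these intervals do not overlap. At widths of 100 or 150 bp both stood close to 60%, with 59.2% and 61.4%. On II, 49.2% of UNC-55-only peaks were outside genes (interval 41.6 to 56.7%), the lowest share of the autosomes, and on IV 64.2% were (interval 55.1 to 72.7%).

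**Figure D4:**
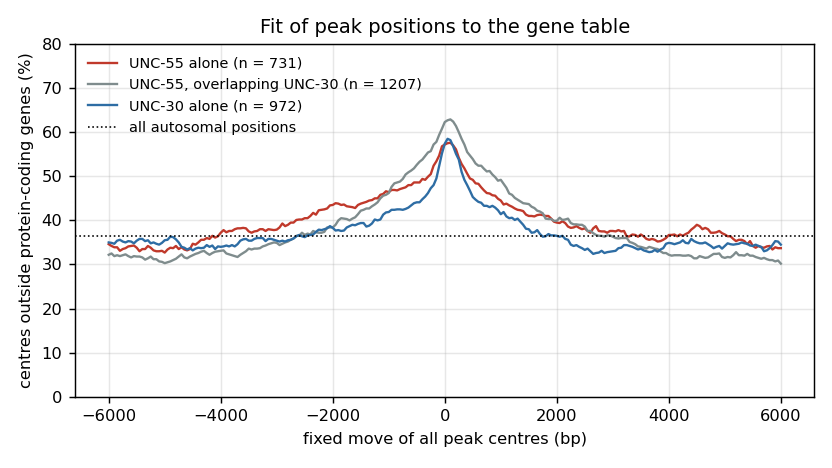
Share of peak centres outside protein-coding genes (vertical axis, percent) when all centres are moved by the same distance (horizontal axis, bp), for the 3 sets; the dotted line is the share of all autosomal positions, 36.5%. The curve of UNC-55-only peaks is at 57.2% at a move of 0, reaches its highest value of 57.6% at a move of 100 bp, and stays at or below 43.5% for moves of 2000 bp or more.

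For small RNA genes the 3 sets were compared only with each other, since the share of all autosomal positions near such genes was not computed. A tRNA gene was within 300 bp of 4 of the 731 centres (0.547%, interval 0.149 to 1.40%) and of 29 of the 972 UNC-30-only centres (2.98%, interval 2.01 to 4.26%), with intervals that do not overlap. Shared peaks were there in 1 of 1207 cases (0.0829%, interval 0.00210 to 0.461%), so both UNC-55 sets were below the UNC-30-only set. A piRNA gene was as near to 13 UNC-55-only (1.78%), 33 shared (2.73%) and 16 UNC-30-only centres (1.65%), with overlapping intervals. For snoRNA genes, which guide chemical modification of other RNAs, the counts were 2 UNC-55-only and 12 shared peaks, and for miRNA genes 1 and 8, with overlapping intervals.

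Over the 17241 autosomal protein-coding genes, 953 (5.53%) contained or flanked a UNC-55-only peak, and 386 (2.24%) had one within 1000 bp of a border. For shared peaks the corresponding shares were 8.36% and 3.33%, and for UNC-30-only peaks 7.29% and 3.53%. Of the 953 genes, 290 also contained or flanked a shared peak, which is 30.4% of them and 20.1% of the 1442 genes with a shared peak. No other peak of either factor was assigned to 573 of the 953. Long genes and genes beside long spaces are met more often by any set of peaks. The 953 genes had a median length at percentile 77.2 of all autosomal genes, and the genes with shared peaks one at percentile 74.6, so the median length of each list below is given beside its counts.

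The gene for UNC-55 itself contained or flanked 3 UNC-55-only peaks. This was not exceptional, since 43 genes had 3 or more and the highest count was 7. On chromosome I, 2 UNC-55-only peaks lay outside the gene and within 1000 bp of its borders, at I 7898101 to 7898350 (250 bp) and I 7903551 to 7903650 (100 bp). A further one at I 7906451 to 7906900 (450 bp) lay in the space toward F55D12.5, and at a move of 200 bp its centre falls within that neighbour. Between them were a shared pair inside unc-55, with its UNC-55 peak at I 7899651 to 7900050 (400 bp), and a shared pair outside it, with its UNC-55 peak at I 7904751 to 7905300 (550 bp). No UNC-30-only peak was assigned to unc-55. The UNC-55-only peaks thus alternated with shared ones along this gene.

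Of 16 autosomal genes listed for D-type motor neurons and GABA signalling (median length at percentile 84.8), 4 contained or flanked a UNC-55-only peak (25%, interval 7.27 to 52.4%). A shared peak was there for 10 (62.5%) and a UNC-30-only peak for 6 (37.5%), beside 5.53, 8.36 and 7.29% of all genes. Beside unc-55, the 4 were gbb-2, mab-9 and pde-4. In gbb-2, which encodes a subunit of the metabotropic GABA-B receptor, 2 UNC-55-only peaks lay inside the gene, at IV 4502451 to 4502650 (200 bp) and IV 4505051 to 4505400 (350 bp). No shared or UNC-30-only peak was assigned to it. In pde-4, a cyclic AMP phosphodiesterase gene, the UNC-55-only peak at II 7629501 to 7630000 (500 bp) was, with one of equal width in mix-1, the widest of chromosome II. It lay in the same gene as a shared pair whose UNC-55 peak, at II 7641451 to 7642600, was 1150 bp wide, and as UNC-30-only peaks at II 7634201 to 7634500 and II 7640201 to 7640700. Next to mab-9, a T-box factor gene, a UNC-55-only peak of 100 bp at II 510901 to 511000 stood beside shared UNC-55 peaks at II 511951 to 512350 and II 512651 to 512850. Among the 4 genes, gbb-2 had UNC-55-only peaks and no others, and the rest had shared peaks as well.

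Genes of acetylcholine signalling, the transmitter of the excitatory motor neurons, were next to UNC-55-only peaks in 5 of 23 autosomal cases (21.7%, interval 7.46 to 43.7%, median length at percentile 86). They were next to shared peaks in 8 (34.8%) and to UNC-30-only peaks in 1 (4.35%), beside 5.53, 8.36 and 7.29% of all genes. Within 1000 bp of a border were the peaks at acr-21, a receptor subunit gene, at III 6581501 to 6581750 (250 bp), and at lev-1, a subunit gene of the levamisole-sensitive receptor, at IV 13179151 to 13179350 (200 bp). The lev-1 peak lay inside the gene, 900 bp from a UNC-30 peak that was part of a shared site there, while acr-21 had no other peak. The others were ace-2, an acetylcholinesterase gene, acr-7 and acr-24. A gene of the same system outside this list, cho-1, was picked out after the values were seen. It encodes the choline transporter that supplies acetylcholine synthesis, and the space between it and C48D1.5 held 3 UNC-55-only peaks at IV 13218401 to 13218500 (100 bp), IV 13219401 to 13219650 (250 bp) and IV 13220501 to 13220800 (300 bp). The nearest UNC-30 peak to any of them was 19700 bp away.

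Genes of the synaptic vesicle cycle and the active zone, where vesicles fuse, were next to UNC-55-only peaks in 7 of 11 autosomal cases (63.6%, interval 30.8 to 89.1%). They were next to shared peaks in 9 (81.8%) and to UNC-30-only peaks in 6 (54.5%), beside 5.53, 8.36 and 7.29% of all genes. The genes of this list are long, with a median length at percentile 94.3, and 6 of the 7 also had a shared peak. Within 1000 bp of a border was the peak at syd-1, an active zone assembly gene, at II 7594251 to 7594350 (100 bp, inside the gene). The same held for one at rpm-1, a presynaptic ubiquitin ligase gene, at V 8820801 to 8821050 (250 bp), but not at all of the moves of 0, 100 and 200 bp. The vesicle priming gene unc-13 had 3 UNC-55-only peaks, of which those at I 7428901 to 7429100 and I 7440001 to 7440200 (200 bp each) lay inside it. The SNAP-25 gene ric-4 had one of 350 bp inside it at V 10263751 to 10264100, and its shared peaks lay outside the gene. In rab-3, which encodes a vesicle GTPase, a UNC-55-only peak at II 5723551 to 5723800 (250 bp) lay 1150 bp from the UNC-30 peak of a shared site in the same gene.

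Homeobox genes encode DNA-binding factors of cell identity, and their median length was at percentile 70.0. They were next to UNC-55-only peaks in 9 of 58 autosomal cases (15.5%, interval 7.35 to 27.4%, beside 5.53% of all genes). Shared peaks were next to 8 of them (13.8%, beside 8.36%) and UNC-30-only peaks to 5 (8.62%, beside 7.29%). Among them unc-42, a homeobox gene of neuron identity, held 3 UNC-55-only peaks, at V 9765651 to 9765900 (250 bp), V 9767651 to 9767800 (150 bp) and V 9768801 to 9769700 (900 bp), and no other peak of either factor. The last of these was the second widest UNC-55-only peak, and at a move of 200 bp its centre falls between F46B6.2 and unc-42. In unc-4, which sets the identity of cholinergic motor neurons, the peak at II 9900201 to 9900450 (250 bp) lay 84050 bp from any UNC-30 peak. In ceh-32, a gene of the sine oculis class, the peak at V 11704601 to 11704950 was 350 bp wide and inside the gene. The Hox gene egl-5, which patterns the tail, had 3 UNC-55-only peaks in the spaces around it, at III 7812151 to 7812550 (400 bp), III 7818901 to 7819050 (150 bp) and III 7824001 to 7824100 (100 bp), and no other peak. The Hox gene lin-39 of the midbody differed, with 2 UNC-55-only peaks beside 6 shared and 5 UNC-30-only peaks.

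Neuropeptide genes were next to UNC-55-only peaks in 9 of 110 autosomal cases (8.18%, interval 3.81 to 15.0%), near the 5.53% of all genes. They were next to shared peaks in 12 (10.9%, beside 8.36%) and to UNC-30-only peaks in 10 (9.09%, beside 7.29%). Their median length was at percentile 18.1. Within 1000 bp of a border were nlp-21 (400 bp wide, inside the gene, at III 11392151 to 11392550), nlp-18 (350 bp, II 11027701 to 11028050), flp-4 (200 bp, II 10048551 to 10048750), nlp-11 (150 bp, II 9691951 to 9692100) and ins-37 (150 bp, II 13834351 to 13834500), of which 4 lie on II. Of these 5, nlp-18 neither contained nor flanked its peak centre and is not among the 9. None of the 5 had a shared or UNC-30-only peak within 1000 bp of a border. Farther off, nlp-11 had a shared UNC-55 peak assigned to it, at II 9695951 to 9696250. Actin regulators were next to UNC-55-only peaks in 4 of 17 cases (23.5%, interval 6.81 to 49.9%, median length at percentile 82.3). They were next to shared peaks in 2 (11.8%) and to UNC-30-only peaks in 6 (35.3%), beside 5.53, 8.36 and 7.29% of all genes. The peak at gex-3, a gene of the WAVE complex that starts actin branching, was at IV 12404151 to 12404350 (200 bp), and that inside mig-10, a lamellipodin gene of axon outgrowth, at III 8285851 to 8286250 (400 bp).

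Nuclear hormone receptor genes, the family of unc-55, were next to UNC-55-only peaks in 6 of 247 autosomal cases (2.43%, interval 0.897 to 5.21%), below the 5.53% of all genes, with a median length at percentile 56.9. Shared peaks were also below their share of all genes, with 8 (3.24%, interval 1.41 to 6.28%, against 8.36%). For UNC-30-only peaks there were 12 (4.86%, interval 2.54 to 8.33%), an interval that includes the 7.29% of all genes. Within 1000 bp of a border, beside unc-55, were nhr-256 with a peak of 100 bp and nhr-280 with one of 200 bp, the latter not at each move. The gene nhr-280 neither contained nor flanked its peak centre and is not among the 6. Collagen genes, which build the cuticle, were next to UNC-55-only peaks in 5 of 129 cases (3.88%, interval 1.27 to 8.81%), to shared peaks in 6 (4.65%, interval 1.73 to 9.85%) and to UNC-30-only peaks in 14 (10.9%, interval 6.06 to 17.5%). These intervals overlap, and each includes the share of all genes for its set (5.53, 8.36 and 7.29%). The median length of collagen genes was at percentile 26.4. The widest UNC-55-only peaks within 1000 bp of a collagen gene border were those at col-55 and col-39 (300 bp each), col-46 and col-71 (200 bp each) and col-40 (150 bp). Of these genes, col-39 and col-46 neither contained nor flanked their peak centre and are not among the 5 of 129. Ribosomal protein genes were next to UNC-55-only peaks in 2 of 76 cases (2.63%, interval 0.320 to 9.18%), rps-20 and rps-23, to shared peaks in 17 (22.4%, interval 13.6 to 33.4%) and to UNC-30-only peaks in 15 (19.7%, interval 11.5 to 30.5%). The UNC-55-only interval does not overlap the others, but it includes the 5.53% of all genes. The shared and UNC-30-only shares were above those of all genes, 8.36% and 7.29%. Ribosomal protein genes are short, with a median length at percentile 11.6. Histone genes were next to UNC-55-only peaks in 4 of 68 cases (5.88%, interval 1.63 to 14.4%), near the 5.53% of all genes. They were next to shared peaks in 4 (5.88%, interval 1.63 to 14.4%, beside 8.36%). UNC-30-only peaks were next to 1 (1.47%, interval 0.0372 to 7.92%, beside 7.29%). The median length of histone genes was at percentile 3.54. Counted by borders within 1000 bp they were 5, his-72 with a peak of 150 bp, his-27 and his-28 with a peak in common, and his-3 and his-4 with another. Histone genes have near-identical copies, and no source used here says how reads were shared among copies, so these peaks are uncertain.

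**Figure D5:**
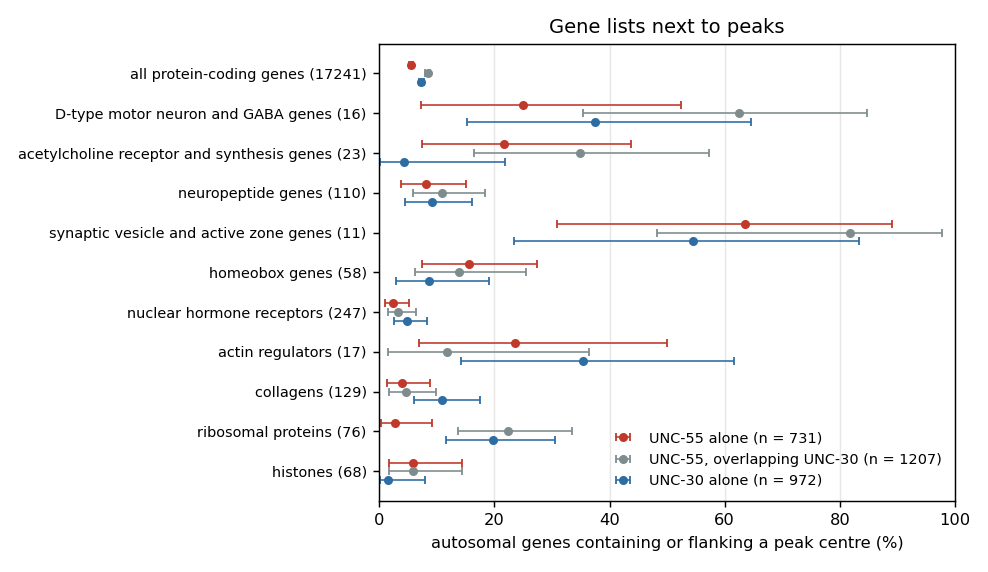
Share of the autosomal genes of each list that contain or flank a peak centre (horizontal axis, percent, with exact 95% intervals), for the 3 sets; list sizes are in parentheses. For ribosomal protein genes the UNC-55-only share is 2.63% beside 22.4% and 19.7%, and for all protein-coding genes the shares are 5.53%, 8.36% and 7.29%.

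Counted by gene, 43 genes contained or flanked at least 3 UNC-55-only peaks. These were long, with a median length at percentile 95.9, and 28 of them also had a shared peak. They were picked out after the values were seen. The count was highest at ptp-3, a receptor tyrosine phosphatase gene of the LAR family that acts in axon guidance and synapse formation. It had 7 UNC-55-only peaks between II 10957501 and 11004400, of 100 to 300 bp, beside 3 shared and 3 UNC-30-only peaks. Of the 7, 4 lay outside ptp-3, in the space between it and spe-57, and count for both genes. The others lay inside ptp-3. Next came casy-1, the calsyntenin gene, with 5 UNC-55-only, 3 shared and 1 UNC-30-only peaks. Among the genes with 4 was nrx-1, which encodes neurexin, a synaptic adhesion protein, with all 4 inside the gene. It also had 2 shared and 1 UNC-30-only peaks. Another was cam-1, which encodes a Ror-type receptor tyrosine kinase, with 1 inside, 3 outside and 2 shared peaks. The 3 outside count for csa-1 too. Also with 4 were C29H12.6, egl-27, mpz-1, spe-57, and cat-6 and saeg-1, which flank the same 4 peaks. Of the genes with 4, R02D5.4 and R02D5.24 flank the same space on V with its 4 UNC-55-only peaks, from V 14486601 to 14500700 and 100 to 250 bp wide, and no other peak.

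When UNC-55-only peaks under 2000 bp apart were joined, 646 remained single, 36 groups had 2, 3 groups had 3 and 1 group had 4. The group of 4 lay inside casy-1, at II 5949901 to 5952350, with peaks of 100, 350, 150 and 200 bp. The groups of 3 were those at unc-42, at V 9765651 to 9769700, and next to cho-1, at IV 13218401 to 13220800, and one at C29H12.6, at II 6113851 to 6116850. The groups at unc-42 and cho-1 had no UNC-30 peak and no shared peak within 2000 bp, and those on II had 1 UNC-30 peak each within that distance.

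The widest UNC-55-only peak, at I 4124851 to 4126050 (1200 bp), lay between H31G24.1 and lin-44, a Wnt ligand gene, and was 13250 bp from a UNC-30 peak. After the peak in unc-42 (900 bp) came one at I 14855351 to 14856200 (850 bp) on the boundary of aex-5, a proprotein convertase gene, and unc-54, the gene of the main myosin heavy chain of body wall muscle. Its centre falls in aex-5, between the genes or in unc-54 as positions are moved by 0, 100 or 200 bp. The peak at V 5200051 to 5200700 (650 bp) lay between Y47A7.2 and ttc-37. The others of the 10 widest were 550 to 450 bp wide. They lay inside phaf-1 (I 8277801 to 8278350), pfas-1 (III 4622201 to 4622750), pde-4 and mix-1, a condensin gene (II 10834801 to 10835300), beside unc-55, and between F55C12.4 and tag-234 (II 5860601 to 5861050). At 450 bp more peaks tied than the 10 places held, and the order of chromosome and position was used. The widest peak of IV, at IV 8175801 to 8176250 (450 bp), lay between C07G1.15 and pct-1.

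The UNC-55-only peaks most remote from UNC-30 had widths usual for the set. The 5 farthest were 100 to 250 bp wide, as were 603 of all 731 UNC-55-only peaks (82.5%). All 5 lay in left or right parts of II or V. The farthest, at V 16040551 to 16040650 (100 bp), lay between his-3 and his-4, 310300 bp from the nearest UNC-30 peak. It was followed by V 15953901 to 15954050 (150 bp, 290800 bp away), inside srw-57, and by II 1301 to 1550 (250 bp, 191450 bp away), at the left end of the chromosome beside 2L52.1. Then came II 13575401 to 13575600 (200 bp, 180550 bp away), between lin-38 and mrpl-37, and V 810401 to 810650 (250 bp, 164650 bp away), between R13D11.4 and nhr-270.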

How the data were processed

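The authors deposited, per the file headers, 1 list of peak positions for each ChIP library (chromosome, start and end). No source used here names the peak caller, its threshold, the use of the input, the genome build or the read depth, and the input libraries were not analysed here. Positions lie on a grid of 50 bp and count from 0, with the end included. They were converted to count from 1. A gap is the number of bases between 2 peaks.

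The peaks described, the lists of genes and the rules for naming were chosen with earlier results of these data known. Regions were named by width, by grouping, by distance from UNC-30 and by closeness to the edge of the rule, and genes by a border within 1000 bp of a peak centre, the widest peak first and at most 5 per list. For the actin regulators, 1 gene that this rule names is not reported here. Genes outside this rule are given as next to a peak, for the list counts. The plan asked for gene starts. The RefSeq gene table used (WBcel235) has no strand, so either border counted. Positions were compared with it after fixed moves of up to 6000 bp in steps of 50 bp, and none of its coordinates is printed. Chromosome lengths run to the end of the last listed peak of either factor.

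The alternatives were other overlap rules, width and distance limits, and, added after the data were seen, positions moved by 100 and 200 bp and wide peaks only for the share outside genes. Overlap and gap counting was tested on simulated data. The tools were pandas 2.3.3 and numpy 2.4.6 for counting, scipy 1.17.1 for intervals and matplotlib 3.10.9 for figures, under Python 3.11.15.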

Additional observations from a re-analysis of the deposited data

How the results depend on the processing

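Of 22 values under other settings, 14 stayed inside the reported value's 95% interval or, for the median width of 200 bp, did not move. Asking for 50% overlap, for centres within 200 bp, or for no UNC-30 peak within 500 bp kept the UNC-55-only share between 35.6 and 39.1% of autosomal UNC-55 peaks. The central part held 1.36 times its length share of the peaks, and a wider central part, of 50% of each chromosome, 1.37 times. Among UNC-55 peaks of at least 300 bp, 18.3% were UNC-55-only in place of 37.7%. Of UNC-55-only peaks of that width, 46.9% were outside genes in place of 57.2%. The limits of distance set the shares built on them. Another UNC-55 peak lay under 1000 bp away for 12.2% and under 5000 bp for 45.0%, a shared site for 6.98% and 29.7%, and a gene border within 500 bp for 26.5% and within 2000 bp for 58.8%. Moving positions by 100 or 200 bp left the share outside genes at 57.6 and 56.1%. No paired analysis was possible because there was a single library per factor, and leaving out replicates was impossible too. Without read depth or scores, a missing UNC-30 peak cannot be read as absent binding.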
